A study of Mus musculus with 23 samples.

Results

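Uterine horns injected with a hydrogel carrying human endometrial organoids (HG+ORG) were set against horns injected with the hydrogel alone (HG), by bulk RNA sequencing of the endometrium. The comparison holds 12 of the 23 libraries, chosen by the names of the deposited count columns: 6 HG+ORG horns, numbered 18 to 23, and 6 HG horns, numbered 12 to 17. The other libraries were 5 PBS (saline) and 6 SHAM horns, which entered the statistical fit and appear below as levels only. The animals were female, immunocompetent C57BL/6 mice, and the model was set up by injuring the uterus with 70° ethanol. The injection came 4 days after the injury and the tissue was taken 2 weeks after the injection. HG+ORG horns therefore differ from HG horns by the organoids alone as far as the labels go, and both carry the injury and the gel. Neither the age of the mice nor the treatment of SHAM horns is stated in the labels. Each library came from the endometrium of 1 horn, squeezed out of the muscle wall by hand. The organoids are human and the reads were aligned to the mouse genome, so transcripts of surviving human cells were not measured as such.

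The uterine wall consists of an inner endometrium, in which luminal and glandular epithelium rests on a stroma of fibroblasts with blood vessels, and an outer myometrium of smooth muscle. Stromal fibroblasts carry receptors for estrogen and progesterone and form the bed in which embryos implant, and HOX genes of the posterior clusters mark their regional identity. Endometrial organoids are grown from the epithelium alone and hold gland-like cells without stroma, vessels or muscle. A hydrogel derived from endometrial tissue can offer them a scaffold of extracellular matrix, and foreign material in a tissue can draw in macrophages.

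Total counts in these 12 libraries ran from 8259351 to 14206928. HG+ORG 18 stood apart from the rest of its group. The median absolute log2 difference of its genes from the other HG+ORG horns was 0.939, against 0.279 to 0.588 for the other HG+ORG horns and 0.336 to 0.492 for the HG horns, each measured against the rest of its own group. Its TMM factor, edgeR's correction of the library size, was 0.702 and the lowest of all 23 libraries. Esr1, the estrogen receptor of epithelium and stroma, stood at 14.0 CPM (counts relative to the TMM-scaled library total) in HG+ORG 18, against 268 to 373 CPM in the other HG+ORG horns and 298 to 431 CPM in HG horns. Epithelial cadherin Cdh1 was at 122 CPM in that horn, against 960.4 to 1298 CPM in the other HG+ORG horns and 766 to 1094 CPM in HG horns. Both were lower in HG+ORG 18 than in each of the other 11 horns, and results are therefore given with and without it. The epithelial markers Epcam, Krt8, Krt18 and Cdh1 were detected in all 12 horns. The labels do not tie horns to animals, and they give 21 mice for all tissue work against 23 libraries, so some horns share a mouse. The p-values treat horns as independent and may be too small.

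No gene passed a Benjamini-Hochberg adjusted p of 0.05 in edgeR's quasi-likelihood test (0 of 17708 genes, 0%), in which all 4 groups shared an estimate of the spread. The smallest adjusted p was 0.270. Every gene discussed below therefore fails that test, and its p is given unadjusted. At an unadjusted p under 0.05, 918 genes (5.18%) were higher and 819 (4.63%) lower in HG+ORG horns. Leaving out HG+ORG 18 again gave 0 of 17664 genes (0%) past the adjusted threshold, with a smallest adjusted p of 0.169. The unadjusted counts without that horn were 479 higher (2.71%) and 1638 lower (9.27%). Of the genes under 0.05, 725 lower genes and 204 higher genes were shared by both fits. In 723 of the 918 higher genes, HG+ORG 18 was the highest of its group.

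DESeq2, run on the same counts, did make calls, and most of them were lower genes. At its adjusted p under 0.05 it called 124 lower genes (0.7%) and 39 higher genes (0.22%), and without HG+ORG 18 it called 667 lower (3.78%) and 32 higher (0.181%). It gave no adjusted p for 328 genes with all horns and for 58 without HG+ORG 18. Those genes count as not called in the shares, so the balance of higher and lower calls leaves them out. All 124 lower genes of the full set were called again without HG+ORG 18, whereas 3 of the 39 higher genes were. HG+ORG 18 was the highest horn of its group for each of the 39. The DESeq2 count depended on single libraries, from 74 genes without HG+ORG 19 to 699 without HG+ORG 18. In the set of 12 fits that each left out 1 horn, 26 genes were called every time and all of them were lower in HG+ORG. limma-voom called 0 genes both with and without HG+ORG 18, with smallest adjusted p of 0.458 and 0.293.

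A simpler description counts genes for which no horn of either group reached the other group. The HG+ORG horns lay wholly below the HG horns for 27 genes (0.152%) and wholly above them for 5 genes (0.0282%). With HG+ORG 18 set aside these numbers were 143 (0.808%) below and 24 (0.136%) above. The lower genes were thus more numerous by this measure.

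Bnc2, a zinc-finger protein of mesenchymal cells including fibroblasts, had the smallest p of all named genes. Its lowest, median and highest values were 0.419, 0.749 and 1.36 CPM in HG+ORG horns, against 1.86, 3.94 and 7.73 CPM in HG horns. The groups did not overlap, and HG+ORG 18 was the highest of the HG+ORG horns. The log2 fold change was -2.42 (SE 0.44), where SE is the standard error, with an unadjusted p of 1.89e-05, and DESeq2 gave an adjusted p of 5.65e-04. Leaving out HG+ORG 18 moved the fold change to -2.64.

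Igfbp5 encodes a secreted protein that binds insulin-like growth factors. Its level, again as lowest, median and highest horn, was 12.3, 23.8 and 48.5 CPM in HG+ORG horns, against 80.3, 144 and 235 CPM in HG horns. Every HG+ORG horn was below every HG horn, and HG+ORG 18 was the lowest of all 12. On the log2 scale the fold change was -2.49 (SE 0.51), with an adjusted p of 0.00133 in DESeq2.

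Arhgap20, a GTPase-activating protein, had 0.140, 0.286 and 0.816 CPM in HG+ORG horns, against 0.970, 5.35 and 14.5 CPM in HG horns. The groups stayed apart although HG 15 came close to HG+ORG 22. The fold change on the log2 scale was -3.88 (SE 0.85) with all horns and -3.82 (SE 0.92) without HG+ORG 18. Prss23, a secreted serine protease, was far more abundant, with 54.9, 71.2 and 78.2 CPM in HG+ORG horns, against 80.2, 192 and 241 CPM in HG horns. HG 12 and HG 15 lay just above the HG+ORG horns and the other HG horns well above them, for a log2 fold change of -1.33 (SE 0.30).

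Nrn1 and Wscd2 were low in CPM but likewise did not overlap. Nrn1, which encodes the small membrane-anchored protein neuritin, had 0.110, 0.143 and 0.297 CPM in HG+ORG horns, against 0.404, 2.27 and 4.48 CPM in HG horns, with a log2 fold change of -3.71 (SE 0.80). Wscd2 had 0.140, 0.335 and 0.741 CPM in HG+ORG horns, against 0.970, 2.83 and 6.16 CPM in HG horns, with a log2 fold change of -3.12 (SE 0.69). In both genes HG 15 was the lowest HG horn.

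Several genes with comparable p-values did overlap because of HG 12 or HG 15. Kcnd3, a voltage-gated potassium channel of excitable cells, had 0.341, 0.396 and 1.04 CPM in HG+ORG horns, against 0.480, 4.55 and 18.6 CPM in HG horns, with a log2 fold change of -3.49 (SE 0.69). HG 12 lay among the HG+ORG horns while HG 14 was the highest. Tmtc1, an enzyme that attaches mannose to cadherins, had 1.79, 2.17 and 4.08 CPM in HG+ORG horns, against 3.88, 9.60 and 76.2 CPM in HG horns, and the overlap came from HG+ORG 18 and HG 15. The fold change of Tmtc1 was -2.98 (SE 0.64) on the log2 scale, and -1.69 without HG 14, its highest horn.

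The thyroid hormone receptor Thrb had 1.34, 1.97 and 3.41 CPM in HG+ORG horns, against 2.75, 6.79 and 14.8 CPM in HG horns, with a log2 fold change of -1.92 (SE 0.42). The groups overlapped in part, since HG+ORG 21 reached above HG 15. Kank2, a scaffold protein at cell-matrix adhesions, had 26.2, 37.6 and 46.3 CPM in HG+ORG horns, against 44.4, 66.0 and 82.5 CPM in HG horns. The horns overlapped at HG+ORG 20 and HG 12, and the log2 fold change was -0.78 (SE 0.17).

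**Figure D1:**
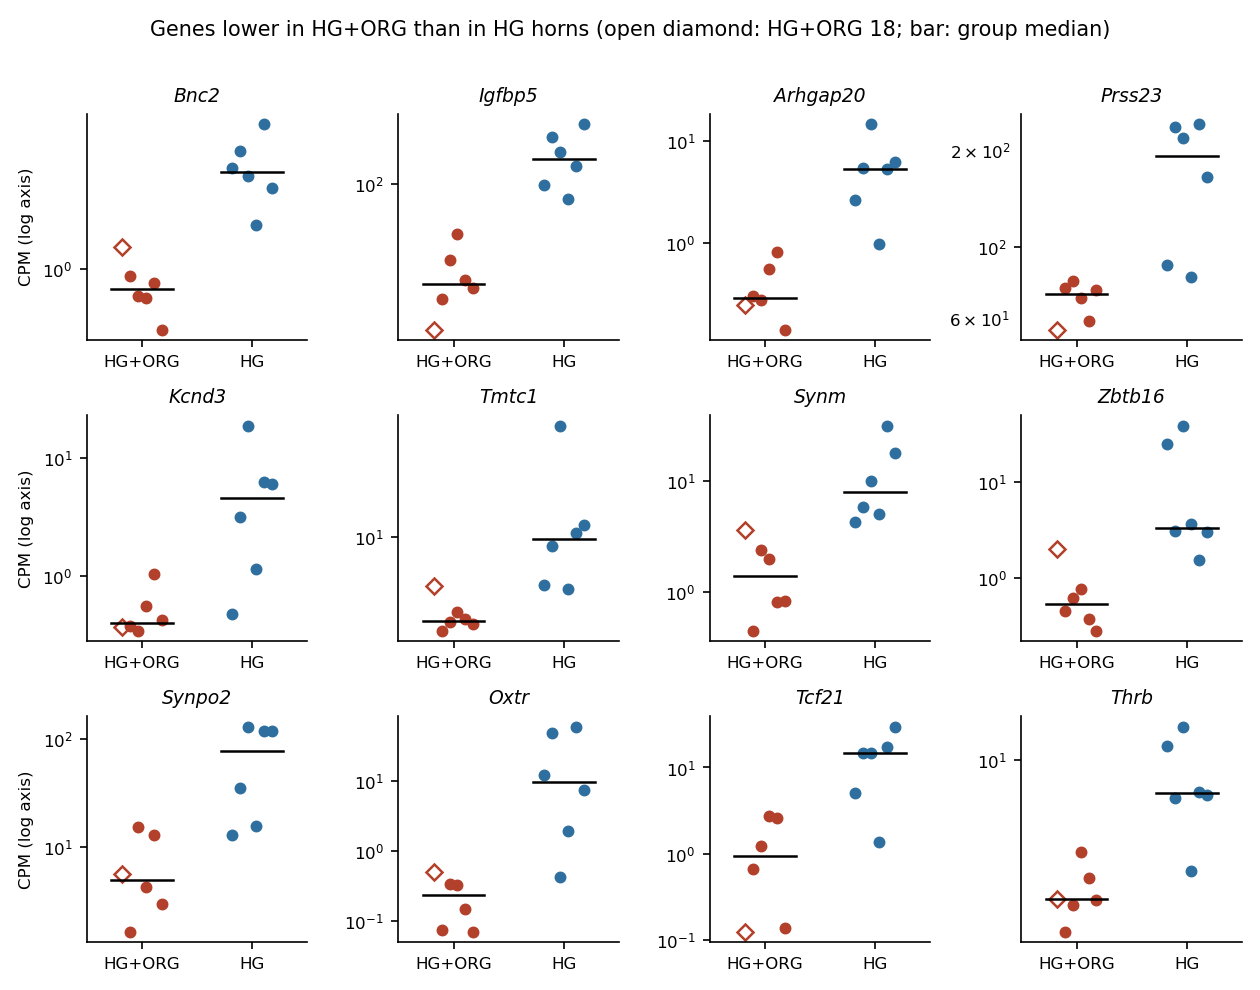
Level of 12 genes in each horn, in CPM on a log axis, with HG+ORG horns left of HG horns; the open diamond is HG+ORG 18 and the bar is the group median. For Bnc2, Igfbp5, Arhgap20, Prss23 and Synm the groups do not overlap, and for Oxtr every HG+ORG horn except HG+ORG 18 lies below every HG horn.

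Further genes that DESeq2 called in each of its 12 leave-one-out fits were looked at after their values were seen. Dpyd, which breaks down pyrimidines, had 0.0698, 0.582 and 0.816 CPM in HG+ORG horns, against 0.727, 5.72 and 15.1 CPM in HG horns, and the overlap was limited to HG 15 and HG+ORG 22. Akr1c14, a hydroxysteroid dehydrogenase of steroid metabolism, had 1.57, 3.23 and 11.9 CPM in HG+ORG horns, against 8.24, 39.2 and 156 CPM in HG horns. HG 13, HG 16 and HG 17 were high and HG+ORG 22 reached the low HG horns, and the log2 fold change was -3.64 (SE 0.87). Acta1, the actin of skeletal muscle, had 0.0698, 0.496 and 4.43 CPM in HG+ORG horns, against 0.242, 18.2 and 43.9 CPM in HG horns. HG 14 and HG 15 lay in the HG+ORG range, and the log2 fold change was -4.07 (SE 1.12). Aff3 and Klhl13 did not overlap and had log2 fold changes of -3.42 and -2.31. Others among them were Negr1, Wasf3, Mrvi1 and Ndrg2, with log2 fold changes between -4.20 and -1.77.

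Smooth muscle genes were lower as a list with and without HG+ORG 18. All 19 tested members had a fold change below 0, with a median of -2.83 on the log2 scale, against 0.04 over all genes tested. This is 1 of 40 lists of marker and pathway genes, with 480 tested genes in all. Of the 19 muscle genes, 13 had an unadjusted p under 0.05, all lower, against 4.63% lower over all genes. DESeq2 called 7 as lower, against 0.7% of all genes. Setting HG+ORG 18 aside gave a median of -3.29, against 0.01 over all genes. In that fit 16 members were lower at an unadjusted p under 0.05, against 9.27% of all genes. DESeq2 then called 15 as lower, against 3.78%. Casq2 was listed and not tested because its counts were too low.

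The actin-bundling protein Synpo2 had 1.64, 4.99 and 15.3 CPM in HG+ORG horns, against 12.9, 76.8 and 129.6 CPM in HG horns. HG+ORG 20 was the highest of its group and overlapped HG 12, while HG 14, HG 16 and HG 17 were the highest. The fold change of HG+ORG over HG was -3.33 (SE 0.78) on the log2 scale, with a DESeq2 adjusted p of 0.00229. Synm, an intermediate filament protein that links muscle cells to their adhesions, had 0.448, 1.41 and 3.59 CPM in HG+ORG horns, against 4.32, 7.91 and 31.5 CPM in HG horns and did not overlap. Its log2 fold change was -2.89 (SE 0.74), and its DESeq2 adjusted p was 0.00919. Pgm5, a protein of muscle adhesions, also did not overlap, with a log2 fold change of -2.83 (SE 0.80).

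The contractile proteins themselves varied far more from horn to horn. Myh11, the myosin heavy chain of smooth muscle, had 0.419, 7.75 and 46.5 CPM in HG+ORG horns, against 10.8, 84.2 and 670.2 CPM in HG horns. HG 16 was the highest horn and HG 12 and HG 14 lay within the HG+ORG range, and the log2 fold change of -3.77 (SE 1.31) carries a correspondingly wide error. Acta2, the actin of smooth muscle and activated fibroblasts, had 2.45, 22.7 and 231 CPM in HG+ORG horns, against 23.9, 284 and 1208 CPM in HG horns. HG+ORG 18 was the highest of its group and overlapped HG 12, HG 14 and HG 15. The log2 fold change of Acta2 was -2.71 (SE 1.23) with all horns and -3.90 (SE 1.34) without HG+ORG 18. The muscle intermediate filament desmin, Des, had 121 CPM in HG+ORG 18, 3.21 to 39.3 CPM in the other HG+ORG horns and 12.1 to 406 CPM in HG horns. On the log2 scale its fold change was -2.26 (SE 1.10) with all horns and -3.55 (SE 1.16) without HG+ORG 18. Hspb6 and Flna, which other cell types also express, had fold changes near 0, at -0.03 and -0.39 on the log2 scale.

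Receptors and channels of uterine contraction were also lower. Of 11 tested members, 8 had an unadjusted p under 0.05, all lower, against 4.63% lower over all genes, and the median log2 fold change was -2.77. The median was -3.44 without HG+ORG 18, with 9 members lower at that p, against 9.27% of all genes. DESeq2 then called 7 as lower, against 3.78% of all genes. Oxtr, the oxytocin receptor that drives labour contractions, had 0.0698, 0.239 and 0.495 CPM in HG+ORG horns, against 0.430, 9.70 and 59.4 CPM in HG horns. HG 14 was the HG horn that reached into the HG+ORG range and HG 13 and HG 16 were the highest. For this gene the log2 fold change of -6.48 (SE 1.60) was the largest among these receptors, and DESeq2 gave an adjusted p of 5.65e-04. The prostaglandin receptor Ptger3 had 0.445, 1.75 and 2.52 CPM in HG+ORG horns, against 2.50, 11.9 and 64.3 CPM in HG horns, and HG 15 alone among the HG horns came down to the highest HG+ORG horns. Its log2 fold change was -3.54 (SE 0.99). The calcium channel subunit Cacna1c had 0.279, 1.42 and 4.46 CPM in HG+ORG horns, against 1.04, 13.3 and 24.2 CPM in HG horns. HG 12 and HG 15 lay within the HG+ORG range, and the log2 fold change was -2.88 (SE 0.97). Kcns3, a modulatory potassium channel subunit outside the list, had 0.0746, 0.138 and 0.220 CPM in HG+ORG horns, against 0.0808, 2.57 and 11.7 CPM in HG horns, with a log2 fold change of -4.69 (SE 1.05), with HG 15 at the level of the HG+ORG horns. Gja1, the gap junction protein connexin 43 that couples muscle cells in labour and is made by other cells too, had a log2 fold change of -0.01 (SE 0.46).

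Summed over the smooth muscle list, the level was 304, 476 and 1646 CPM in HG+ORG horns, against 529, 1694 and 5478 CPM in HG horns. Acta2, Myh11 and Des were above 0 in each of these horns. Flna, which most cell types make, gave 119.7 to 762 CPM of the sum in HG+ORG horns, against 272 to 1185 CPM in HG horns. PBS horns summed to 445 to 2904 CPM and SHAM horns to 287 to 769.8 CPM. HG 13, HG 16 and HG 17 and a single PBS horn exceeded every HG+ORG and SHAM horn. The endometrium was pressed out by hand, and the part of adhering muscle in these results was not tested. In bulk tissue, fewer cells of a type and less RNA per cell cannot be told apart.

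Smooth muscle promoters often carry the CArG box, the element bound by serum response factor, and 2 promoters are shown because their genes belong to the list that was low together. In RefSeq's GRCm38.p6 promoters, which span 250 bases before to 50 bases after the start, 14 list members had a sequence. An exact box was found in 1 of these 14 (7.14%), against 186 of 11648 tested genes (1.6%). A box with at most 1 departure in its inner 6 bases was found in 5 of 14 (35.7%), namely Acta2, Synm, Ldb3, Jph2 and Hspb6, against 1264 of 11648 genes (10.9%). The box reads the same on both strands. Ldb3, a scaffold of the contractile apparatus, held the exact box and had a log2 fold change of -0.96 (SE 0.45), while Acta2 held a pair of boxes with 1 departure each. The lines below run 5′ to 3′ on the coding strand, at chr14:34588632-34588931 (minus strand) for Ldb3 and chr19:34255324-34255623 (minus strand) for Acta2, with the boxes in capitals. A match is a description of the sequence and was not tested as a binding site; the counts were made on GRCm39, so these coordinates apply to GRCm38.p6 alone.
Ldb3: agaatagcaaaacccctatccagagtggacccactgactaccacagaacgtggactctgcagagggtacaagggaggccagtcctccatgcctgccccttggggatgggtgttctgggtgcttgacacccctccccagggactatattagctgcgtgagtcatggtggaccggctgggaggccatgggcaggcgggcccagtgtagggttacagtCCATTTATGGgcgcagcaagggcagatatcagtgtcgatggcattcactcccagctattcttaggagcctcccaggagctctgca
Acta2: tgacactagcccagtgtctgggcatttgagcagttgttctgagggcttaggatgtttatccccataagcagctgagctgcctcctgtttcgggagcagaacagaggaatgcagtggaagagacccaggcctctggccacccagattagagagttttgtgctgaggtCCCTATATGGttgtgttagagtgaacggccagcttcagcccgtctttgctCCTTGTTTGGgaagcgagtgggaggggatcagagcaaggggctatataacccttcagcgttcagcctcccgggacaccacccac

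The stromal list held 15 tested genes with a median log2 fold change of -0.95, with an unadjusted p under 0.05 for 7 lower genes and 1 higher gene, against 4.63% lower and 5.18% higher over all genes. In the fit without HG+ORG 18, 10 were lower and none higher, against 9.27% and 2.71% of all genes. DESeq2 then called 8 as lower, against 3.78% of all genes. The transcription factor Tcf21, a regulator of fibroblast fate, had 0.124, 0.949 and 2.75 CPM in HG+ORG horns, against 1.37, 14.6 and 29.7 CPM in HG horns. HG 15 was the HG horn within the HG+ORG range, and HG+ORG 18 and HG+ORG 23 were the lowest. This gave a log2 fold change of -3.45 (SE 0.90), with a DESeq2 adjusted p of 0.00748. Nr2f2, which mediates progesterone signals in uterine stroma, had 54.8, 91.7 and 103 CPM in HG+ORG horns, against 100.4, 106 and 216 CPM in HG horns. HG 14 and HG 17 were the high horns, the others lay close together, and the log2 fold change was -0.63 (SE 0.18). Smoc2, a matricellular protein, had a log2 fold change of -2.66 (SE 0.87) with all horns and -3.09 (SE 0.95) without HG+ORG 18.

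The general fibroblast markers depended on HG+ORG 18. Pdgfra, the receptor that marks fibroblasts, was at 62.6 CPM in HG+ORG 18 and 1.57 to 7.92 CPM in the other HG+ORG horns, against 5.41 to 161 CPM in HG horns. The log2 fold change was -1.63 (SE 1.02) with that horn and -3.19 (SE 1.02) without it. Hand2, a progesterone-induced factor of the stroma, had a log2 fold change of -2.56 (SE 1.10) with all horns and -3.47 (SE 1.18) without HG+ORG 18. With HG+ORG 18 kept and HG 14 left out, the fold changes were -0.57 for Pdgfra and -1.52 for Hand2. The small proteoglycan Dcn stood at -0.70 with all horns and -2.05 (SE 1.06) without HG+ORG 18. The median of the list without HG+ORG 18 was -2.64.

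HOX genes and other patterning factors were lower as well, with a median log2 fold change of -2.27 over 13 tested members, or -3.17 without HG+ORG 18. Of these, 7 had an unadjusted p under 0.05, all lower, against 4.63% of all genes, and DESeq2 called 4, against 0.7% of all genes. These counts were 9 and 6 without HG+ORG 18, against 9.27% and 3.78%. In each fit 2 of the 13 members had a fold change above 0. The summed level of the list differed little, with medians of 476 CPM in HG+ORG horns and 514 CPM in HG horns. Without HG+ORG 18 the median sum of HG+ORG horns was 524 CPM. Hoxa11, which is required for stromal and glandular development, had 1.21, 2.70 and 14.8 CPM in HG+ORG horns, against 2.91, 23.1 and 149 CPM in HG horns. HG+ORG 22 was the highest HG+ORG horn and HG 14 the highest HG horn, and the ranges overlapped. On the log2 scale the fold change was -3.47 (SE 1.04) with all horns and -3.39 (SE 1.12) without HG+ORG 18. Hoxa10, needed for implantation, had 2.24, 3.56 and 25.7 CPM in HG+ORG horns, against 5.09, 34.8 and 254 CPM in HG horns, with a log2 fold change of -3.35 (SE 1.03). Here too HG+ORG 22 was high, and HG 15 was the lowest HG horn. Hoxd9, Hoxd10 and Hoxd11 had log2 fold changes of -3.03, -3.41 and -3.30.

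In the insulin-like growth factor axis, Igfbp5 was the member that separated the groups with all horns included. The growth factor Igf1 itself had 301 CPM in HG+ORG 18 and 3.80 to 28.8 CPM in the other HG+ORG horns, against 15.5 to 375 CPM in HG horns. On the log2 scale its fold change was -1.54 (SE 0.98) with all horns, and -3.75 (SE 0.90) with an unadjusted p of 4.55e-04 without HG+ORG 18. Over the 13 tested members the median log2 fold change was -1.12, or -1.97 without that horn, and -0.49 without HG 14.

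Hedgehog signalling passes from the epithelial ligand Ihh to receptors and Gli factors in the stroma. Ihh had 1.87, 54.4 and 222 CPM in HG+ORG horns, against 0.351, 90.1 and 258 CPM in HG horns, and the horns overlapped throughout, with a log2 fold change of -0.33 (SE 1.34). The target Gli1 had 0.140, 0.514 and 3.71 CPM in HG+ORG horns, against 0.323, 4.75 and 105 CPM in HG horns. HG 14 was by far the highest horn, and HG 12 and HG 15 lay within the HG+ORG range. The log2 fold change of Gli1 was -4.68 (SE 1.33), and DESeq2 gave an adjusted p of 0.00739. Ptch1 and Smo, the main receptor and the transducer, had log2 fold changes of -0.66 and 0.03. Gli2, which activates the targets, had a log2 fold change of -2.71 (SE 0.91).

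Genes that respond to progesterone or glucocorticoid were split. Over 9 tested members the median log2 fold change was -0.12, with 4 members above 0 and 5 below. Without HG+ORG 18 the median was -0.63, with 2 members above 0 and 7 below. In each fit 3 members were lower at an unadjusted p under 0.05, against 4.63% of all genes with all horns and 9.27% without HG+ORG 18. Zbtb16, a transcription factor induced by both hormones, had 0.279, 0.531 and 1.98 CPM in HG+ORG horns, against 1.52, 3.35 and 38.8 CPM in HG horns. HG+ORG 18 alone reached into the HG range, and HG 12 and HG 14 were the highest. The fold change of Zbtb16 was -4.10 (SE 0.93) on the log2 scale, or -4.66 (SE 0.99) without that horn, with DESeq2 adjusted p of 0.00133 and 2.06e-04. Maob, which breaks down amines, had 0.149, 0.520 and 2.52 CPM in HG+ORG horns, against 0.808, 14.2 and 158 CPM in HG horns. HG 15 and HG 16 lay within the HG+ORG range, and the log2 fold change was -5.17 (SE 1.30). Plin4, a coat protein of lipid droplets, had 0, 1.19 and 3.30 CPM in HG+ORG horns, against 0.502, 5.58 and 403 CPM in HG horns, with a log2 fold change of -5.75 (SE 1.56), or -3.14 without HG 12. HG 12 and HG 13 were the high horns, as they were for the fat cell genes described further on. The other 6 tested members had no unadjusted p under 0.05.

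Among the other hormone receptors, the mineralocorticoid receptor Nr3c2 had a log2 fold change of -0.89 (SE 0.36), with an unadjusted p of 0.0216. The fold change of Nr3c2 was -0.42 without HG 12. Esr1 had a log2 fold change of -0.18 (SE 0.15) without HG+ORG 18. The progesterone receptor Pgr had 5.82 CPM in HG+ORG 18 and 39.5 to 718 CPM in the other HG+ORG horns, against 141 to 448 CPM in HG horns, and a log2 fold change of 0.42 (SE 0.61) without HG+ORG 18. The glucocorticoid receptor Nr3c1 had a log2 fold change of -0.49 (SE 0.33) with all horns and -0.99 (SE 0.27) without HG+ORG 18, with an unadjusted p of 0.00122 in that case.

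For muscle and patterning genes, the median score of HG+ORG horns was nearer to those of PBS and SHAM horns than to that of HG horns. The score of a list in a horn averages the log2 CPM of its tested members. The smooth muscle score was 1.05, 2.19 and 3.91 (lowest, median and highest) in HG+ORG horns, against 2.98, 4.70 and 6.67 in HG horns. PBS horns spread from 0.63 to 5.78 and SHAM horns from 1.95 to 2.76, with medians of 2.72 and 2.51. The HOX score had medians of 2.25 in HG+ORG horns and 3.90 in HG horns, beside 2.33 in PBS and 2.46 in SHAM horns. The HG horns therefore had the highest median of the 4 groups for both lists. This did not hold for every list, and the cytokine score had medians of 2.72 in HG+ORG horns and 1.96 in HG horns, beside 0.99 in PBS and 0.89 in SHAM horns.

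**Figure D2:**
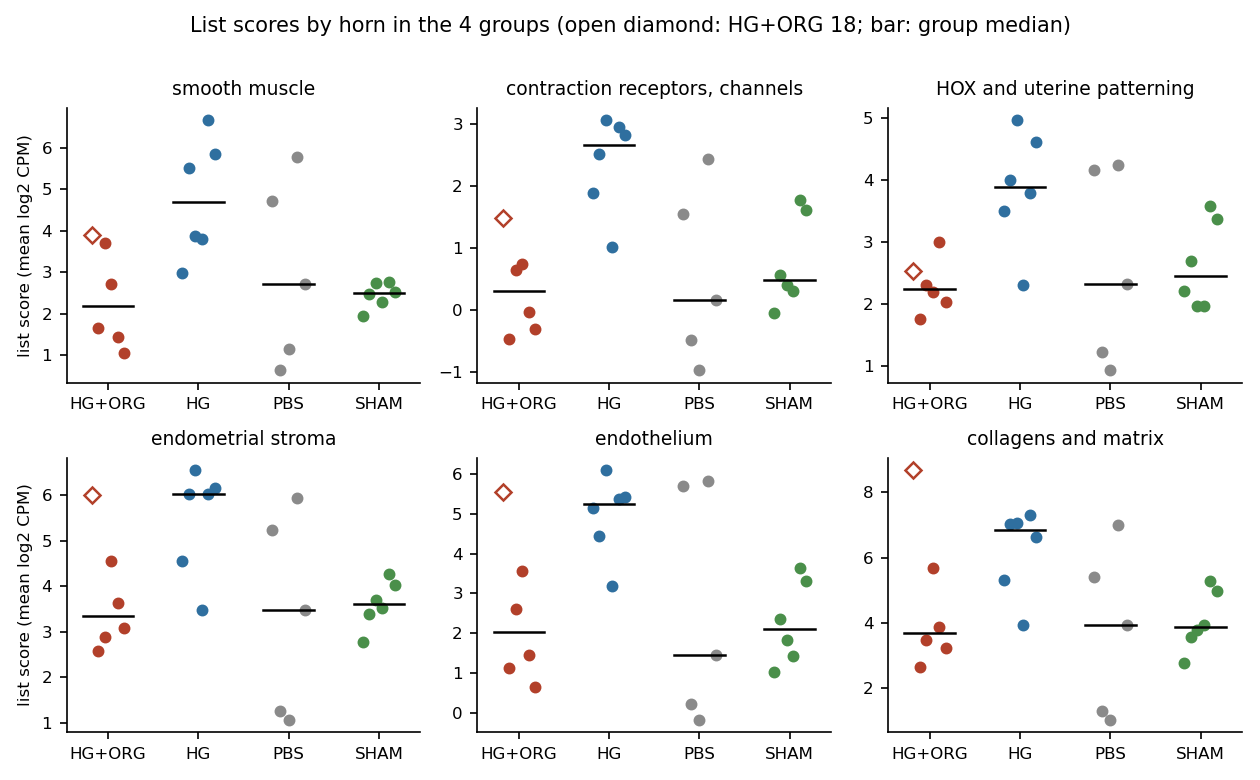
List score (mean log2 CPM of tested members) of every horn for 6 lists, with HG+ORG and HG beside PBS and SHAM; the open diamond is HG+ORG 18 and the bar is the group median. HG horns have the highest median in each panel, and HG+ORG 18 lies above the other HG+ORG horns in 5 of them, most of all for collagens and matrix at 8.68.

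Vessel and matrix genes were for the most part lower in HG+ORG horns 19 to 23 and high in HG+ORG 18, though the horns overlapped. For endothelium the score of HG+ORG 21 was 3.57, above HG 15 at 3.20. For collagens and matrix it was 5.68, above HG 12 at 5.32 and HG 15 at 3.94. The endothelial list, 15 tested genes, had a median log2 fold change of -1.50 with all horns and -3.49 without HG+ORG 18. Its members with an unadjusted p under 0.05, all lower, numbered 1 with all horns and 13 without HG+ORG 18, against 4.63% and 9.27% lower over all genes. Kdr, the main receptor for vascular endothelial growth factor, was at 41.2 CPM in HG+ORG 18 and 0.768 to 6.05 CPM in the other HG+ORG horns, against 7.92 to 62.5 CPM in HG horns. Those 5 HG+ORG horns lay below all HG horns, and the log2 fold change was -1.92 (SE 1.18) with all horns and -3.81 (SE 1.23) without HG+ORG 18. Cdh5, the cadherin of endothelial junctions, had 71.8 CPM in HG+ORG 18, 0.977 to 13.5 CPM in the other HG+ORG horns and 10.3 to 191 CPM in HG horns. HG+ORG 21 was above HG 15, and the fold change of Cdh5 without HG+ORG 18 was -3.78 (SE 1.24) on the log2 scale, with an adjusted p of 0.0120 in DESeq2.

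Pericyte and mural genes followed the endothelium, with a median of -1.37 with all horns and -3.24 without HG+ORG 18 over 10 tested genes. Rgs5, a pericyte marker, was at 98.8 CPM in HG+ORG 18 and 0.298 to 19.4 CPM in the other HG+ORG horns, against 3.72 to 372 CPM in HG horns. HG+ORG 21 was the highest of those 5, and HG 15 the lowest HG horn. Tgfbr3, a co-receptor for TGF-beta, had 27.0 CPM in HG+ORG 18 and 1.64 to 9.90 CPM in the other HG+ORG horns, against 10.1 to 67.7 CPM in HG horns. For this gene the log2 fold change was -2.33 (SE 0.68) with all horns and -3.13 (SE 0.68) without HG+ORG 18, and DESeq2 called it in both cases, with adjusted p of 0.0402 and 6.37e-04.

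The collagen and matrix list of 25 genes had a median log2 fold change of -0.35 with all horns and -2.43 without HG+ORG 18. None of its members was lower at an unadjusted p under 0.05 with all horns, and 16 were without HG+ORG 18, against 9.27% of all genes. Col1a1, the main fibrillar collagen of scar and stroma, had 3714 CPM in HG+ORG 18 and 15.5 to 372 CPM in the other HG+ORG horns, against 29.1 to 1049.5 CPM in HG horns. HG 12 and HG 15 lay among the HG+ORG horns, and the log2 fold change was 0.30 (SE 1.31) with all horns and -2.37 (SE 1.27) without HG+ORG 18. Col3a1, its partner in soft tissue, had 4172 CPM in HG+ORG 18, 23.2 to 629 CPM in the other HG+ORG horns and 63.9 to 1391 CPM in HG horns. Neither Col1a1 nor Col3a1 passed an unadjusted p of 0.05 in either fit. The basement membrane collagen Col4a1, which vessels produce, did so without HG+ORG 18, at -4.15 (SE 1.21) and an unadjusted p of 0.00259.

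Without HG+ORG 18 the lower genes with the smallest p included 4 whose unadjusted p with all horns was above 0.05. Copz2, a subunit of the vesicle coat of the early secretory pathway, had 90.5 CPM in HG+ORG 18 and 2.25 to 4.15 CPM in the other HG+ORG horns, against 3.80 to 25.9 CPM in HG horns. Its log2 fold change was -0.14 (SE 0.81) with all horns and -2.65 (SE 0.54) without HG+ORG 18. Clstn2, Tspan4 and Pheta2 had log2 fold changes of -4.31 (SE 0.91), -1.30 (SE 0.27) and -2.47 (SE 0.53) without HG+ORG 18, and that horn was the highest of its group for each of them.

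Growth factors of vessels and repair gave a mixed picture, with median log2 fold changes of -0.14 for 12 angiogenic genes, 0.15 for 18 other growth factors and -0.06 for 22 genes of the TGF-beta and BMP pathways. Without HG+ORG 18 the medians were -1.91, -0.22 and -0.22. Vegfa, the main angiogenic factor, had 96.5, 179 and 674 CPM in HG+ORG horns, against 43.3, 162 and 350.0 CPM in HG horns, and the ranges overlapped, with a log2 fold change of 0.69 (SE 0.60) and an unadjusted p of 0.263. Angptl4, a secreted inhibitor of lipoprotein lipase, had 302 CPM in HG+ORG 18 and 2.82 to 6.00 CPM in the other HG+ORG horns, against 10.1 to 486 CPM in HG horns. Without HG+ORG 18 the remaining horns did not overlap and the log2 fold change of Angptl4 was -4.44 (SE 1.13). HG 12 held the highest value, and leaving out that horn, with HG+ORG 18 kept, gave a fold change of 1.01. Tgfb1, which drives fibrosis, had 272 CPM in HG+ORG 18 and 6.30 to 22.9 CPM in the other HG+ORG horns, against 10.2 to 21.8 CPM in HG horns. On the log2 scale its fold change was 1.75 (SE 0.69) with all horns and -0.11 (SE 0.41) without HG+ORG 18. Fgf2, a growth factor for stroma and vessels, had 2.25, 6.34 and 10.8 CPM in HG+ORG horns, against 5.90, 14.8 and 22.9 CPM in HG horns. HG 14 and HG 15 lay within the HG+ORG range, and the log2 fold change was -1.22 (SE 0.44). Ltbp4, which stores latent TGF-beta in the matrix, had 17.2, 32.7 and 77.3 CPM in HG+ORG horns, against 60.8, 134 and 193 CPM in HG horns, with a log2 fold change of -1.78 (SE 0.51) and a DESeq2 adjusted p of 0.0470. HG+ORG 18 alone exceeded the lowest HG horn, HG 15. Matrix proteases and their inhibitors had a median of 0.79 over 19 tested genes, with 7 higher and 3 lower at an unadjusted p under 0.05, against 5.18% and 4.63% of all genes. Without HG+ORG 18 none was higher and 6 were lower, against 2.71% and 9.27% of all genes, and the median was -0.55.

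**Figure D3:**
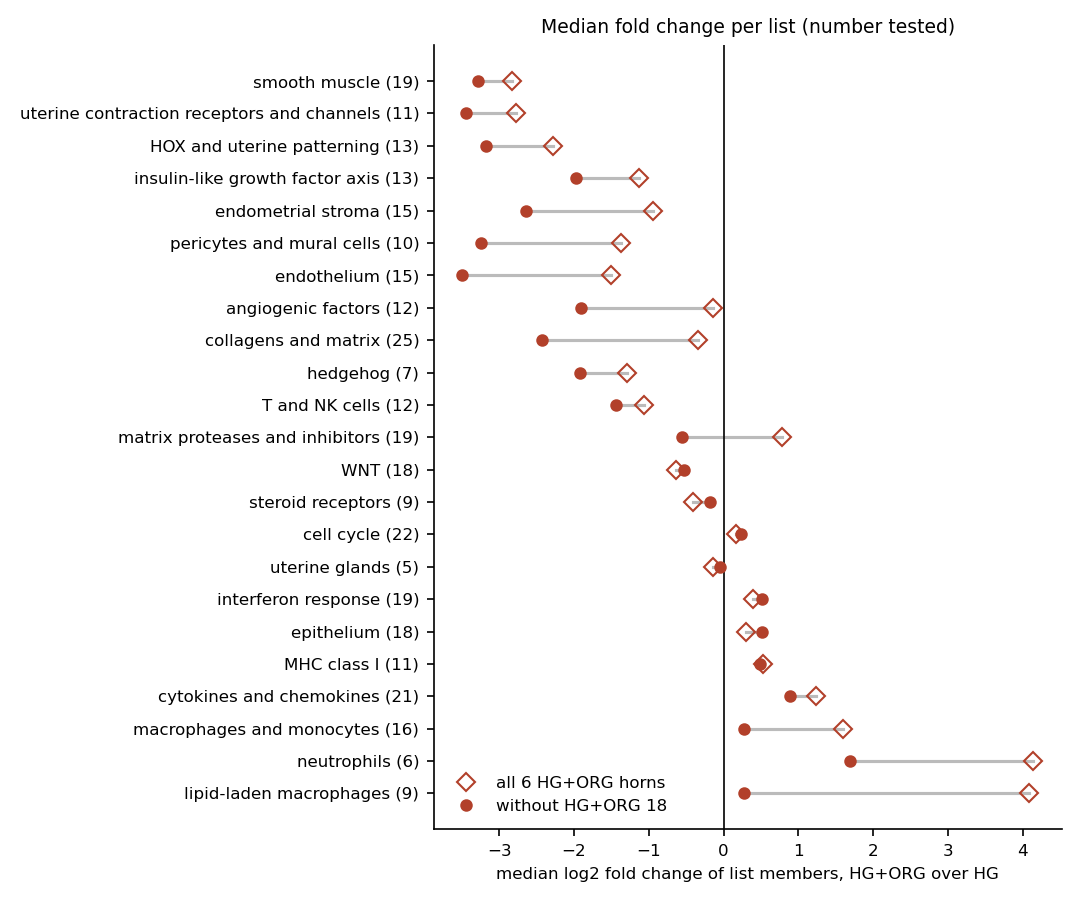
Median log2 fold change (HG+ORG over HG) of the tested members of 23 lists, with all 6 HG+ORG horns (open diamond) and without HG+ORG 18 (dot). Smooth muscle lies at -2.83 with that horn and -3.29 without it, collagens and matrix at -0.35 and -2.43, and lipid-laden macrophages at 4.09 and 0.27.

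Epithelial genes had a median log2 fold change of 0.30 with all horns and 0.51 without HG+ORG 18. With HG+ORG 18 kept and HG+ORG 21 left out, the median was -0.05. HG+ORG 21 had the highest epithelial score of all HG+ORG horns, at 9.51. Of 18 tested members, none had an unadjusted p under 0.05 with all horns, and 4 were higher without HG+ORG 18, against 2.71% of all genes. Esrp1, a splicing regulator specific to epithelium, had 21.8 CPM in HG+ORG 18 and 215 to 267 CPM in the other HG+ORG horns, against 127 to 198 CPM in HG horns. Those 5 HG+ORG horns lay above all HG horns, for a log2 fold change of 0.51 (SE 0.12) and a DESeq2 adjusted p of 0.00227. Klf5 and Ehf, epithelial transcription factors, had log2 fold changes of 0.75 (SE 0.27) and 0.64 (SE 0.25) without HG+ORG 18. Krt8, a keratin of simple epithelium, had 829.9 to 1728 CPM in those horns, against 414 to 1028 CPM in HG horns, and a log2 fold change of 0.53 (SE 0.27). With HG+ORG 18 kept and HG+ORG 21 left out, Klf5, Ehf and Krt8 had log2 fold changes of 0.11, 0.27 and 0.05.

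Gland and hormone-response genes varied widely within both groups, with medians of -0.13 for 5 gland genes, 0.62 for 11 estrogen-induced genes and -0.16 for 10 implantation regulators. The estrogen-induced median was -0.07 with HG+ORG 21 left out and HG+ORG 18 kept. The gland regulator Foxa2 had 5.18, 14.3 and 25.6 CPM in HG+ORG horns, against 5.15, 10.4 and 39.1 CPM in HG horns, a log2 fold change of -0.13 (SE 0.54). The estrogen-induced secretory proteins Ltf and Lcn2 spread over more than 1 order of magnitude in each group, with log2 fold changes of 0.96 (SE 0.99) and 0.87 (SE 1.14). HG+ORG 18, HG+ORG 22, HG 14 and HG 17 stood low for both. Lif, the cytokine that opens the uterus to implantation, had 6.90, 12.2 and 259 CPM in HG+ORG horns, against 5.04, 45.2 and 96.5 CPM in HG horns, with a log2 fold change of 0.18 (SE 0.95). HG+ORG 21 was its highest horn. Ptgs2, the inducible prostaglandin synthase, had 13.3, 54.7 and 772 CPM in HG+ORG horns, against 8.64, 29.1 and 72.9 CPM in HG horns, with HG+ORG 21 and HG+ORG 18 the highest, and a log2 fold change of 2.69 (SE 1.12), or 1.61 without HG+ORG 21. Msx2, a homeobox factor of the epithelium, had a log2 fold change of 0.92 (SE 0.40) without HG+ORG 18.

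The WNT list had a median of -0.63 over 18 tested genes, and 0.18 without HG 14. Wnt7b and Wnt4, ligands of the uterine epithelium and stroma, had log2 fold changes of 0.94 (SE 0.44) and 0.95 (SE 0.45) without HG+ORG 18, with unadjusted p of 0.0448 and 0.0470. The secreted activators Rspo1 and Rspo3 had log2 fold changes of -1.83 (SE 0.74) and -1.40 (SE 0.63) with all horns, and Rspo3 had -0.84 without HG 17. Dkk2, an inhibitor of the pathway, had 0.440, 0.504 and 2.85 CPM in HG+ORG horns, against 0.959, 3.86 and 14.3 CPM in HG horns, with a log2 fold change of -2.58 (SE 0.94). The direct target Axin2 had a log2 fold change of 0.31 (SE 0.65).

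Cell division genes overlapped between the groups. Mki67, which marks dividing cells, had 3.85, 110.2 and 511 CPM in HG+ORG horns, against 44.7, 152 and 408 CPM in HG horns, with a log2 fold change of -0.17 (SE 0.87). HG+ORG 21 was by far the lowest horn and HG+ORG 22 the highest. None of the 22 tested members of the list had an unadjusted p under 0.05 in either fit, and the median log2 fold change was 0.16.

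Genes of antigen presentation by MHC class I were slightly higher, with a median log2 fold change of 0.53 over 11 tested genes and 3 of them under 0.05 in each fit, against 5.18% of all genes with all horns and 2.71% without HG+ORG 18. Psmb8, a subunit of the immunoproteasome, had 93.7, 131 and 139 CPM in HG+ORG horns, against 52.3, 63.8 and 131 CPM in HG horns. HG 12 and HG 15 overlapped the HG+ORG horns and the other 4 HG horns were lower, and the log2 fold change was 0.73 (SE 0.24) with all horns and 0.69 (SE 0.25) without HG+ORG 18. None of the 19 interferon response genes had an unadjusted p under 0.05, and their median log2 fold change was 0.39. The H2 genes of this family are near-identical, so their reads may be split between members. Zbp1 and Ifit1, sensors induced by interferon, had log2 fold changes of 0.72 (SE 0.52) and 0.47 (SE 0.44).

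Among the higher genes named by rank of p, Lpin2 was called by DESeq2 with and without HG+ORG 18. Lpin2, a phosphatidate phosphatase of lipid metabolism, had 34.7, 46.1 and 72.3 CPM in HG+ORG horns, against 15.2, 23.6 and 42.1 CPM in HG horns. HG 15 was the HG horn that overlapped. This gave a log2 fold change of 0.99 (SE 0.24) with all horns and 0.83 (SE 0.23) without HG+ORG 18, with DESeq2 adjusted p of 0.0150 and 0.0250. Without HG+ORG 18, Crybg2 had 3.34, 4.89 and 7.31 CPM in the other 5 HG+ORG horns, against 0.860, 2.00 and 2.75 CPM in HG horns, and they did not overlap. The log2 fold change of Crybg2 was then 1.51 (SE 0.36). Others with the smallest p in that fit, Zfpm1, Tent5b and Hnrnph3, had log2 fold changes between 0.51 and 0.85.

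The 5 genes whose HG+ORG horns all exceeded the HG horns, looked up after their values were seen, differed little except for Clec5a. Gsk3a, a kinase of insulin and WNT signalling, had 64.8, 71.9 and 92.4 CPM in HG+ORG horns, against 53.0, 57.3 and 64.4 CPM in HG horns, with a log2 fold change of 0.34 (SE 0.10). Gtf2f1, Rell1 and Anapc2 had log2 fold changes of 0.34 (SE 0.11), 0.60 (SE 0.20) and 0.32 (SE 0.11). Clec5a, a lectin of myeloid cells, was at 67.6 CPM in HG+ORG 18 and 1.32 to 5.37 CPM in the other HG+ORG horns, against 0.485 to 1.21 CPM in HG horns.

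The higher side of the comparison was otherwise carried by HG+ORG 18, which was rich in transcripts of macrophages, neutrophils and inflammation. Of 16 tested macrophage and monocyte genes, 9 were higher at an unadjusted p under 0.05 with all horns and 0 without HG+ORG 18, against 5.18% and 2.71% of all genes. Lyz2, the lysozyme of macrophages, was at 15209 CPM in HG+ORG 18 and 64.8 to 848 CPM in the other HG+ORG horns, against 81.7 to 546 CPM in HG horns. The log2 fold change was 3.49 (SE 1.13) with it and 0.33 (SE 0.72) without it. Adgre1, which encodes the macrophage antigen F4/80, had 172 CPM in HG+ORG 18 and 5.86 to 28.3 CPM in the other HG+ORG horns, against 10.4 to 34.1 CPM in HG horns. For this gene the log2 fold change was 0.99 (SE 0.76) with all horns and -0.44 (SE 0.63) without HG+ORG 18.

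Genes of lipid-laden and matrix-degrading macrophages were the most extreme. Spp1, osteopontin, reached 30191 CPM in HG+ORG 18, against 77.0 to 1254 CPM in the other HG+ORG horns and 25.3 to 582 CPM in HG horns. Gpnmb, a glycoprotein of macrophages that have taken up lipid, had 9282 CPM in HG+ORG 18, 4.03 to 136 CPM in the other HG+ORG horns and 1.17 to 102 CPM in HG horns. The metalloproteinase Mmp12 of macrophages had 6274 CPM in HG+ORG 18, 0.597 to 42.8 CPM in the other HG+ORG horns and 0.143 to 99.6 CPM in HG horns. In the other 5 HG+ORG horns these genes lay in or near the range of the HG horns. The median of the lipid-laden list was 4.09 with all horns and 0.27 without HG+ORG 18. Of its 9 tested members, 7 were higher at an unadjusted p under 0.05 with all horns, against 5.18% of all genes. DESeq2 called 0 of them in that case. Without HG+ORG 18, 0 were higher and 3 lower, against 2.71% and 9.27% of all genes. DESeq2 then called Lpl and Cd36 as lower, with adjusted p of 0.0329 and 0.0370, against 3.78% of all genes.

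Inflammatory mediators of neutrophils and macrophages had the same distribution, with HG+ORG 19 and HG+ORG 21 next in line for some. The calprotectin subunit S100a8 was at 1422 CPM in HG+ORG 18 and 39.5 CPM in HG+ORG 19, with 1.32 to 6.92 CPM in HG horns. Il1b, an inflammatory cytokine, stood at 1425 CPM in HG+ORG 18 and 123 CPM in HG+ORG 19, with 1.88 to 9.34 CPM in HG horns. The neutrophil attractant Cxcl5 had 193, 93.5 and 46.9 CPM in HG+ORG 18, 21 and 19, against 0.966 to 11.3 CPM in HG horns. Cxcl5 and Il1a were the cytokines with an unadjusted p under 0.05 in both fits, and without HG+ORG 18 their log2 fold changes were 2.79 (SE 1.16) and 2.93 (SE 1.24), with a DESeq2 adjusted p of 0.108 for Cxcl5. DESeq2 called 3 higher cytokines with all horns and 0 without HG+ORG 18, against 0.22% and 0.181% of all genes.

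HG+ORG 18 also carried digestive enzyme transcripts. Cela1, a pancreatic elastase, was at 1779.9 CPM in HG+ORG 18 and 1.04 to 5.58 CPM in the other HG+ORG horns, against 3.15 to 7.16 CPM in HG horns. Ctrl, a chymotrypsin-like protease, was at 669 CPM in that horn, against 1.16 to 2.42 CPM in the other HG+ORG horns and 0.820 to 2.50 CPM in HG horns. The mucosal peptide Tff2 was at 402 CPM in HG+ORG 18, 0.148 to 1.47 CPM in the other HG+ORG horns and 0 to 2.00 CPM in HG horns. Of 9 pancreas genes listed, 2 were tested, and the other 7 were not found among the deposited features. Every deposited feature had at least 10 counts in 3 or more libraries, so genes counted in fewer libraries may be missing from the file. The source of these transcripts was not tested. Among the 12 higher genes with the smallest p there were also the chemokine Ccl4, the lectin Lgals3, the lysosomal protease Ctss, the lectin receptor Clec4n, the ribonuclease Rnase1, the synaptic vesicle protein Syngr1, the long noncoding RNA Mirt1 and Ifit1bl2. HG+ORG 18 was the highest HG+ORG horn for each of these 8, and their log2 fold changes ran from 3.17 to 5.90 with all horns and from 0.72 to 1.54 without HG+ORG 18.

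**Figure D4:**
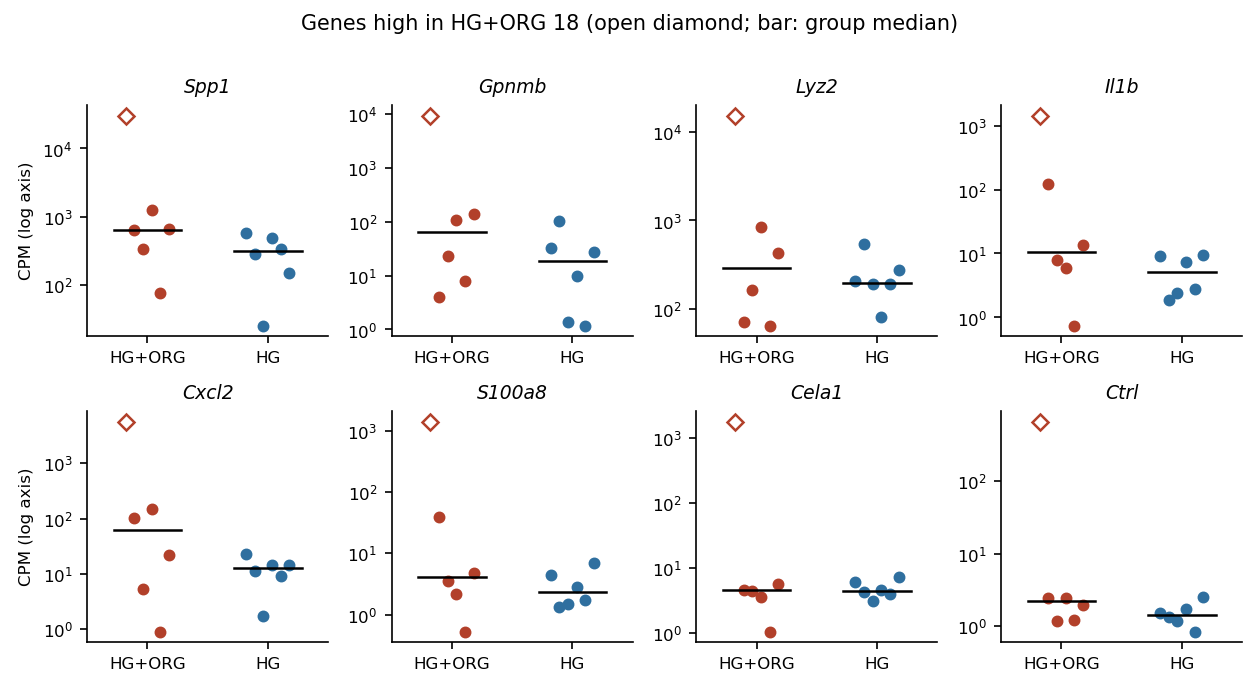
Level of 8 genes in each horn, in CPM on a log axis, with HG+ORG left of HG; the open diamond is HG+ORG 18 and the bar is the group median. HG+ORG 18 is the highest horn for all 8 genes, and the other HG+ORG horns lie in or near the HG range, apart from HG+ORG 19 for Il1b and S100a8 and HG+ORG 19 and 21 for the chemokine Cxcl2.

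Markers of cell types next to the endometrium differed by horn. The adipocyte list had the lowest median of all lists, -6.80, and 6 of 9 tested genes had an unadjusted p under 0.05, all lower, against 4.63% of all genes. Its median was -6.69 without HG+ORG 18, with 7 members lower at that p, against 9.27%. Adipoq, the hormone adiponectin, had 0, 0.467 and 8.58 CPM in HG+ORG horns, against 0, 8.08 and 1150.1 CPM in HG horns. HG 12 held the highest value, HG 13 came next, and the other horns overlapped widely. The list median was -3.55 without HG 12. Summed over the list the level was 21.4 to 674 CPM in HG+ORG horns, against 20.0 to 13557 CPM in HG horns. HG 12 was also the highest HG horn for Plin4, Angptl4 and Kcns3, and the part of adhering fat in those results was not tested.

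Mesothelial genes, which mark the outer surface of the uterus, had a median of -1.86, and 2 of 6 were lower at an unadjusted p under 0.05, against 4.63% of all genes. Their median without HG+ORG 18 was -1.82 and 1 member was lower, against 9.27%, and without HG 13 the median was -1.22. Wt1, a factor of mesothelium and of uterine stroma and muscle, had 3.43, 7.09 and 12.3 CPM in HG+ORG horns, against 7.84, 26.5 and 73.7 CPM in HG horns, with a log2 fold change of -2.14 (SE 0.74). Mesothelial markers summed to 13.8 to 61.3 CPM in HG+ORG horns, against 33.9 to 196 CPM in HG horns. Ngfr, a receptor of nerve sheath and stromal cells, had 0.298, 0.688 and 3.71 CPM in HG+ORG horns, against 0.889, 19.4 and 47.2 CPM in HG horns, with a log2 fold change of -4.12 (SE 1.31), while the other 4 tested nerve genes had no unadjusted p under 0.05.

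Lymphocyte genes were sparse in all horns. Of 12 tested T and NK genes, 5 had an unadjusted p under 0.05, all lower, against 4.63% of all genes. Without HG+ORG 18, 7 of 11 did, against 9.27%, with a median log2 fold change of -1.44. The list summed to 13.7 to 54.6 CPM in HG+ORG horns, against 16.9 to 116 CPM in HG horns. Prf1, the perforin of uterine NK and cytotoxic T cells, had 0.220, 0.605 and 1.73 CPM in HG+ORG horns, against 0.557, 1.70 and 10.9 CPM in HG horns, with a log2 fold change of -2.19 (SE 0.71), or -1.30 without HG 14. HG 14 was the highest horn, and the ranges overlapped. Without HG 14 the list median was -0.31, against -1.06 with all horns. The defining T cell genes Cd3d, Cd3e and Cd8a did not enter the test. No member of the B and plasma cell, mast cell and eosinophil, MHC class II or mitochondrially encoded lists had an unadjusted p under 0.05 in either fit. Squamous, ciliated, red cell and immediate early lists had medians of -0.25, 0.12, -0.77 and 0.09, with at most 2 members of each under 0.05 in either fit.

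**Figure D5:**
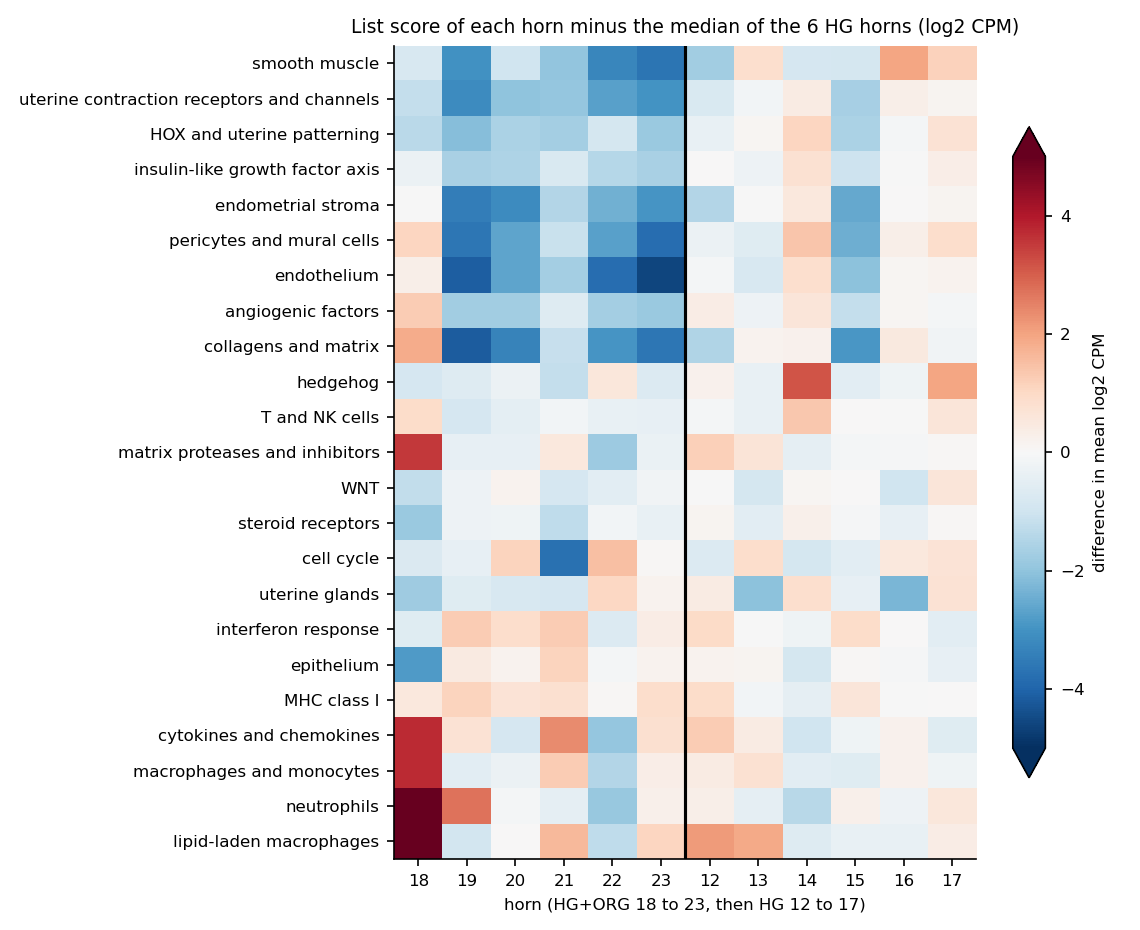
List score of each horn minus the median of the 6 HG horns, in log2 CPM, for 23 lists; HG+ORG horns 18 to 23 are left of the line and HG horns 12 to 17 right of it. HG+ORG 19, 22 and 23 have the 3 lowest scores of the 12 horns for smooth muscle and endothelium, and HG 15 has the lowest HG score for endometrial stroma, endothelium and collagens. HG+ORG 18 is the highest horn for both macrophage lists, neutrophils and cytokines.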

How the data were processed

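RNA was poly(A)-selected and sequenced as single-end reads with a stranded kit, per the labels' protocols. The deposited file holds raw read counts per gene for 23 libraries, 18682 features in all, of which 18341 were given a symbol. The submitters' processing notes list HISAT2 2.2.1, Trimmomatic 0.39, featureCounts 2.0.3 (Subread), DESeq2 1.42.1 in R 4.3.1, and the build GRCm39, with no settings. Neither annotation release nor strand setting is stated there, so overlapping genes may share counts, and so may near-identical paralogs. Human organoid reads that align to the mouse genome cannot be told apart from mouse reads.

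Counts of the 4 groups were fitted in 1 model with edgeR 4.0.16 (quasi-likelihood test, TMM scaling, filterByExpr, which removed 974 features), and p-values were adjusted by Benjamini-Hochberg at 0.05. The standard error of a log2 fold change is its size divided by the square root of the F statistic. CPM use TMM-scaled totals, and log2 CPM and list scores a prior count of 2. DESeq2 1.42.0 and limma 3.58.1 in R 4.3.3 were alternatives, with RLE scaling, no filter, robust fitting, the 2 groups alone and each library left out. Leaving out libraries under DESeq2, and a second library beside HG+ORG 18, was added after the data were seen. In counts simulated for 17455 genes, 200 genes were changed, some by a log2 change of 2 and the rest by 3. Of the former edgeR recovered 80% and of the latter 88%, with 8 false calls. The changed genes were drawn from those with higher counts and less spread, and no simulated horn stood apart as HG+ORG 18 does. These shares therefore do not measure how often real changes would be found in these data.

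Named genes were the 12 higher and 12 lower with the smallest p in the full fit, the 6 of each without HG+ORG 18, up to 4 members of each of 40 lists beside their counts, and 17 fixed genes. The comparison, the lists and the rule were chosen with earlier results of these data known. Genes named outside the rule are said to have been chosen after their values were seen. A few genes that the rule names are not reported here. Per the labels, 2 samples had been discarded for technical problems.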

Additional observations from a re-analysis of the deposited data

Results flagged for a closer look

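In 324 sets of 6 horns, each a named gene's log2 CPM or a list score in HG+ORG or in HG horns, 39 had a single horn far from the rest by Dixon's criterion, and 27 of these were HG+ORG 18. For sets picked without regard to their values, chance gives about 1 in 20. Many of these genes were named by their p with or without HG+ORG 18, so that rate is no yardstick for this count.

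HG+ORG 18 was far above the rest of its group in log2 CPM for the digestive and mucosal genes Cela1 (10.8), Ctrl (9.39) and Tff2 (8.65). The same was true of the myeloid genes Clec4n (8.22) and Clec5a (6.08) and of the lipid-laden macrophage score, at 11.94 against 3.16 to 6.04 in the other 5 HG+ORG horns. It was also high for Angptl4 (8.24), Tgfb1 (8.09), Syngr1 (7.34), Copz2 (6.50), Tspan4 (6.24), Pheta2 (3.35) and Clstn2 (2.80), and above a tight group for Gsk3a (6.53) and Gtf2f1 (6.53).

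The epithelial score of HG+ORG 18 was 5.55, against 8.30 to 9.51 in the other 5 HG+ORG horns. Its epithelial genes were low, with log2 CPM of 7.13 for Epcam, 7.12 for Krt8, 6.93 for Cdh1, 5.61 for Ehf and 4.46 for Esrp1. Low values in that horn were also found for Hnrnph3 (5.34), Esr1 (3.82), Ptch1 (3.81), Tent5b (2.04), Msx2 (1.01) and Crybg2 (-0.61).

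Other horns stood out in 12 sets. HG+ORG 22 was high for Hoxa11 (3.91) and Hoxd11 (1.98) and low for Psmb8 (6.55), and HG+ORG 21 was high for the implantation score (6.37). HG 15 was low for Col4a1 (4.35), Tgfb1 (3.37), Copz2 (1.98) and Negr1 (0.07) and high for Zfpm1 (5.40). HG 14 was low for Tent5b (2.69), Wnt7b (1.70) and Cxcl2 (0.91).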

How the results depend on the processing

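No paired analysis was possible because the labels do not tie horns to animals. The edgeR count of 0 genes past an adjusted p of 0.05 stayed at 0 with RLE scaling, without a filter, with robust fitting, with the 2 groups alone, with limma-voom and without each horn; DESeq2 gave 163, and 699 without HG+ORG 18. Without each horn in turn DESeq2 gave 74 (without HG+ORG 19) to 699 genes, with 97, 80, 90 and 89 without HG 13, HG 14, HG 16 and HG 17, 295 without HG 15 and 253 without HG+ORG 22. With HG+ORG 18 and a second horn left out it gave 208 (HG+ORG 19) to 1226 (HG 15). Genes at an unadjusted p under 0.05 numbered 505 higher with the 2 groups alone and 375 with limma-voom. Leaving out each horn gave 479 to 1277 higher (most without HG+ORG 22) and 579 to 1638 lower (fewest without HG 14). Genes whose horns did not overlap numbered 9 to 40 higher (most without HG+ORG 22) and 32 to 143 lower, in part because fewer horns overlap less often.

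Of 132 named genes, 23 changed sign in some setting. Since no gene at all passed an adjusted p of 0.05 in the edgeR test, that test does not set these genes apart from the others. With limma-voom the log2 fold change was -1.36 for Col1a1, -0.93 for Pgr, -0.72 for Tspan4, -0.42 for Lif, -0.27 for Cdh1, -0.14 for Epcam, -0.13 for Smo, -0.10 for Adgre1, -0.057 for Esrp1, 0.0040 for both Foxa2 and Hspb6, and 0.65 for Ihh. Without each horn in turn it ran from -0.44 to 1.25 for Adgre1, from -4.44 to 1.01 for Angptl4, from -0.054 to 0.29 for Cdh1, from -0.36 to 6.25 for Cela1, from -4.31 to 0.075 for Clstn2, from -2.37 to 0.60 for Col1a1, from -2.37 to 0.23 for Col3a1 and from -2.65 to 0.11 for Copz2. The range was -0.039 to 0.42 for Epcam, -0.36 to 0.35 for Foxa2, -0.54 to 0.16 for Gja1, -0.17 to 0.13 for Hspb6, -1.08 to 0.30 for Ihh, -0.023 to 0.51 for Krt18, -0.0048 to 1.47 for Lcn2, -1.70 to 0.49 for Lif and -0.84 to 0.15 for Mki67. It was -0.31 to 7.67 for Mmp12, -0.25 to 0.42 for Pgr, -0.21 to 0.20 for Smo, -0.11 to 2.02 for Tgfb1 and -1.30 to 0.29 for Tspan4. The cause was not tested. List medians without each horn ran from -3.29 to -1.93 for smooth muscle, from -3.17 to -1.93 for HOX genes and from -2.43 to 0.04 for collagens and matrix.

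A log2 change of a gene near 0 CPM in HG+ORG horns, such as Oxtr, rests on few counts and depends on the prior count of the fit.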
